A study of Arabidopsis thaliana with 6 samples.

Results

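Kinesins are motor proteins that walk along microtubules with the energy of ATP, and they share a motor domain while the rest of the protein sets where each one works. In dividing plant cells they slide and cross-link the microtubules of the spindle, and they build and steer the phragmoplast, the microtubule array that lays down the new cell wall. Other members work in cells that no longer divide, where they act on cortical microtubules, organelles and cell wall growth, and kinesin-14 motors, unlike most others, walk towards the minus end. Of 60 Arabidopsis genes listed as kinesin motor genes, 42 were measured, that is, the platform annotation names them alone for a probe set of the Affymetrix ATH1 array. The other 18 were not analysed here, among them *HIK* and *TES*, the kinesin-7 genes that switch on a MAP kinase cascade in cytokinesis, *POK1* and *POK2*, which orient the division plane, and *ATK1* and *FRA1*. The genes were listed by name, at a time when earlier results of these arrays were known. The class of each gene is that of the general classification of plant kinesins, since the annotation gives most members only a locus number.

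The arrays compare inflorescences with young flower buds of 3 *tink/ibr5-6* plants with those of 3 wild-type plants, Landsberg *erecta* (L*er*), and each plant has 1 array. The *tink/ibr5-6* plants carry 1 EMS allele of *IBR5*, which encodes a dual-specificity MAPK phosphatase. The mutation arose in *klu-2* plants, and the line was backcrossed to L*er* to take *klu-2* out. Both groups are of the L*er* background. The study describes the tissue as closed flowers and as young flower buds, and no source used here states plant age or a finer bud stage. Effects of other EMS mutations that the backcrosses left in the line cannot be told apart from those of *ibr5-6*. The study asked how the phosphatase acts on the growth of petals and leaves, which rests in part on cell division. Values are on the log2 scale of gcrma, on which the lowest signal is 2.1, and array medians lay between 6.18 and 6.20. Differences, called log2 ratios here and log2 fold changes in the plots, are *tink/ibr5-6* minus L*er* from limma, and its p-values were adjusted (Benjamini-Hochberg) across the 22746 probe sets tested.

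Most kinesin genes had somewhat lower values in *tink/ibr5-6* inflorescences, and few of these differences were large beside the spread between plants. For 18 of the 42 members (42.9%), all 3 *tink/ibr5-6* arrays lay under all 3 L*er* arrays, as they did for 14.4% of all probe sets tested. For 2 members (4.76%), all 3 lay above, as for 21.3% of all probe sets. With a gap of at least 0.1 between the genotypes, 9 members (21.4%) were lower, against 10.1% of all probe sets, and 2 were higher, against 14.5%. The median log2 ratio of the 42 members was -0.24, beside 0.00 over all probe sets tested, with quartiles of -0.41 and 0.00 for the members and -0.07 and 0.18 for all probe sets. A log2 ratio under -0.05 was found for 28 members and for 26.6% of all probe sets, and one above 0.05 for 5 members and 36.5% of all probe sets.

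At an adjusted p under 0.05, 4 members passed (9.52%, beside 16.3% of all probe sets), 2 of them lower (4.76%, beside 6.65%) and 2 higher (4.76%, beside 9.6%). In this fit the share of kinesin genes was under the background in both directions, and for lower genes that order depended on the processing. At an unadjusted p under 0.05, 10 members were lower (23.8%, beside 11.9%) and 2 were higher (4.76%, beside 17.9%). With the study's further limit of an absolute log2 ratio above 1, 1 member was called (2.38%, beside 4.25% of all probe sets), the kinesin-7 gene AT4G38950. It was lower, as were 2.71% of all probe sets, and no member was called higher, as were 1.53%. When arrays were centred on their medians the split was 5 lower (11.9%, beside 8.04% of all probe sets) and 2 higher (4.76%, beside 11.3%), and with quantile normalization it was 4 lower (9.52%, beside 7.31%) and 3 higher (7.14%, beside 11.8%). These 3 include AT5G27550, whose deposited values lay between 3.28 and 3.31 on all arrays. Without L*er* replicate 3 it was 5 lower (11.9%, beside 3.18%) and 0 higher (beside 4.88%). With only those probe sets tested whose mean over the arrays was 4 or more, 9 of 32 members were lower (28.1%, beside 14.5%) and 1 was higher (3.12%, beside 22.2%). In L*er*, replicate 1 was the highest of the 3 arrays for 23 of the 35 members that were above a log2 value of 3 on some array, and replicate 3 was the lowest for 20. Without L*er* replicate 1 the median log2 ratio of the members was -0.13.

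**Figure D1:**
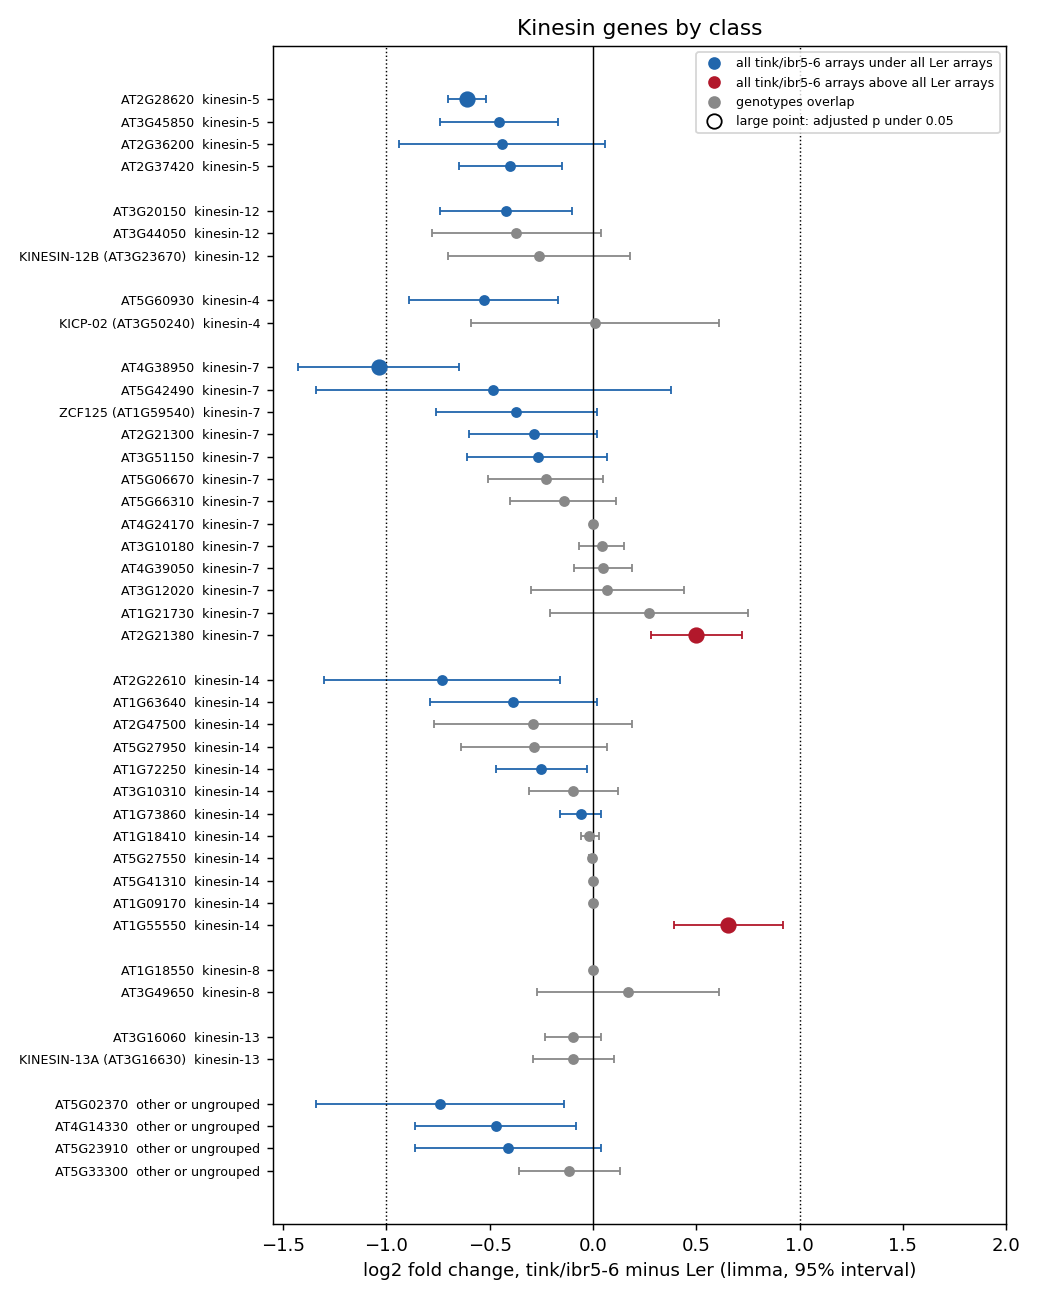
Log2 ratio of the 42 measured kinesin genes, *tink/ibr5-6* minus L*er*, with the 95% interval of limma, grouped by class. Points in blue have all *tink/ibr5-6* arrays under all L*er* arrays (18 genes), points in red have all above (2 genes), points in grey overlap, and large points passed an adjusted p of 0.05; all 4 kinesin-5 genes are blue.

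The kinesin-5 genes encode motors that cross-link and push apart antiparallel microtubules and so keep the spindle bipolar. All 4 were measured, and the class median was -0.45. All 4 had every *tink/ibr5-6* array under every L*er* array, as did 14.4% of all probe sets. AT2G28620 was at 6.64, 6.69 and 6.70 in *tink/ibr5-6*, against 7.28, 7.34 and 7.24 in L*er*. Its replicates lay close together in both genotypes, and the gap between them was 0.54. The log2 ratio was -0.61 (SE 0.03, adjusted p = 0.0034 from limma), which leaves 65.5% of the L*er* level. It was the only member that passed in all 6 fits that left out 1 array.

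The other 3 kinesin-5 genes had log2 ratios of like size and did not pass the test on the deposited values over all probe sets. AT3G45850 was at 7.77, 7.96 and 7.68 in *tink/ibr5-6* and at 8.31, 8.35 and 8.11 in L*er*, a log2 ratio of -0.45 (95% interval -0.74 to -0.17, adjusted p = 0.059 from limma). AT2G37420 was at 6.11, 6.01 and 6.14 in *tink/ibr5-6* and at 6.61, 6.32 and 6.53 in L*er*, one of -0.40 (-0.65 to -0.15, adjusted p = 0.057). Both intervals lie below 0 and neither reaches -1. Both genes passed with quantile normalization (adjusted p of 0.047 for AT3G45850 and 0.045 for AT2G37420), with centred arrays and with either filter on dim probe sets, and AT2G37420 also without L*er* replicate 2, while over all alternatives the adjusted p was 0.011 to 0.17 for AT3G45850 and 0.013 to 0.16 for AT2G37420. AT2G36200 was at 7.27, 7.51 and 7.73 in *tink/ibr5-6*, against 8.23, 7.82 and 7.78 in L*er*, and its highest mutant array came within 0.05 of the lowest L*er* array. Its log2 ratio was -0.44 with an interval of -0.94 to 0.06 (adjusted p = 0.21). The intervals of all 4 overlap, so that no one of them is shown to differ from the others.

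**Figure D2:**
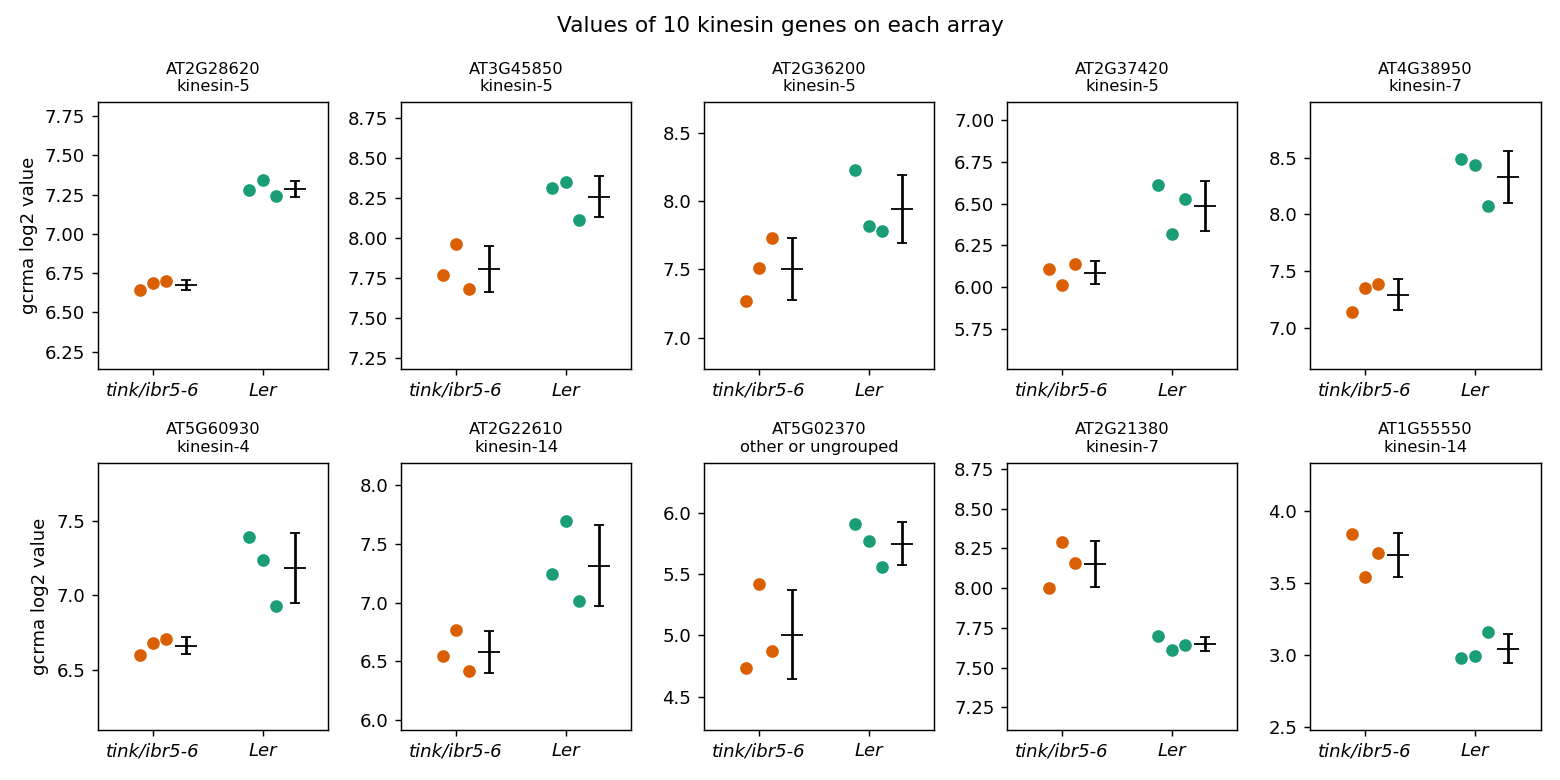
Log2 values (gcrma) of 10 kinesin genes on each array, *tink/ibr5-6* left of L*er* in each panel, with the mean and SD of 3 plants beside the points; each panel has its own scale. The genotypes do not overlap in any of the 10, AT2G21380 and AT1G55550 are higher in *tink/ibr5-6*, and AT2G28620 has the tightest replicates of those that are lower.

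Kinesin-12 motors sit at the midline of the phragmoplast or at the division site, and 3 of 6 were measured. None passed the test, and all had negative log2 ratios, from -0.42 to -0.26. AT3G20150 was at 5.51, 5.61 and 5.56 in *tink/ibr5-6*, against 6.20, 5.78 and 5.95 in L*er*, without overlap (log2 ratio -0.42, adjusted p = 0.092 from limma). It passed with the filter at a mean of 4 (adjusted p = 0.029 from limma). *KINESIN-12B*, also known as *PAKRP1L*, whose protein lies between the opposed microtubule ends of the phragmoplast, was at 6.57, 6.70 and 6.68 in *tink/ibr5-6* and at 7.22, 6.86 and 6.65 in L*er*. Here L*er* replicate 3 lay within the mutant range, and the log2 ratio of -0.26 had an interval of -0.70 to 0.18 (adjusted p = 0.39). AT3G44050 had one of -0.37 (adjusted p = 0.20), and its highest mutant and lowest L*er* value both round to 7.75. Without L*er* replicate 3 this gene passed (adjusted p = 0.041 from limma).

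Kinesin-4 motors include proteins that bind chromosomes and others that guide cell wall deposition. Of 3 genes 2 were measured, and neither passed the test. AT5G60930 was at 6.60, 6.68 and 6.71 in *tink/ibr5-6* and at 7.39, 7.24 and 6.93 in L*er*, a log2 ratio of -0.53 with an interval of -0.89 to -0.17 (adjusted p = 0.073 from limma). Its mutant arrays were close together and the L*er* arrays spread over a wider range, with replicate 3 the lowest, and it passed when that array was left out (-0.66). AT5G60930 also passed with centred arrays and with either filter on dim probe sets. *KICP-02* was at 8.05, 8.29 and 8.40 in *tink/ibr5-6* and at 8.63, 8.18 and 7.91 in L*er*, so that L*er* held both the highest and the lowest value. Its log2 ratio of 0.01 (interval -0.59 to 0.61) turned to -0.16 without L*er* replicate 3, and no direction can be given for it.

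The kinesin-7 class held the largest decrease and 1 of the increases. Plant genomes hold many kinesin-7 genes, and besides *HIK* and *TES* the work of few is known. Of the 13 measured, 1 was lower, 1 was higher and 11 did not pass, and the class median was -0.14. AT4G38950 was at 7.14, 7.35 and 7.39 in *tink/ibr5-6*, against 8.49, 8.43 and 8.07 in L*er*. The lowest L*er* array was 0.68 above the highest mutant array, the widest gap among the members. The log2 ratio was -1.04 (SE 0.15, adjusted p = 0.018 from limma), or 48.8% of the L*er* level. With 1 array left out, the change was -1.17 to -0.96 and the gene was called only without L*er* replicate 3, so that its call needed each of the other 5 arrays, the 3 of *tink/ibr5-6* and replicates 1 and 2 of L*er*.

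AT2G21380 was the kinesin-7 gene that rose. It was at 8.0, 8.29 and 8.16 in *tink/ibr5-6* and at 7.70, 7.61 and 7.64 in L*er*, a log2 ratio of 0.50 (SE 0.08, adjusted p = 0.026 from limma), 1.41-fold higher. All mutant arrays lay above all L*er* arrays, and in the fits that leave out 1 array it passed only without *tink/ibr5-6* replicate 1 (0.43 to 0.57 over these fits). The rest of the class had smaller differences. AT2G21300 had a log2 ratio of -0.29 (adjusted p = 0.20), with a gap between the genotypes that rounds to 0.00. *ZCF125* averaged 5.50 ± 0.12 in *tink/ibr5-6* and 5.87 ± 0.24 in L*er*, and AT3G51150 averaged 5.39 ± 0.17 in *tink/ibr5-6* against 5.66 ± 0.16 in L*er* (mean ± SD of 3 plants), both without overlap and by gaps of 0.02 and 0.01. AT4G39050 averaged 7.71 ± 0.07 in *tink/ibr5-6* and 7.66 ± 0.06 in L*er*, with an interval of -0.09 to 0.19 that leaves room for a small change at most. Of the others, AT5G06670 with -0.23, AT5G66310 with -0.14 and AT3G12020 with 0.07 overlapped between genotypes. AT5G06670 passed without L*er* replicate 3 (adjusted p = 0.039 from limma). AT4G24170 and AT1G21730 stayed at or under a log2 value of 3 on every array, AT5G42490 was above it only on L*er* replicate 2 (3.29), and AT3G10180 was at 4.41 on 5 of the 6 arrays (its other probe set was at 2.1 on all), so that these 4 say little of the genotypes.

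**Figure D3:**
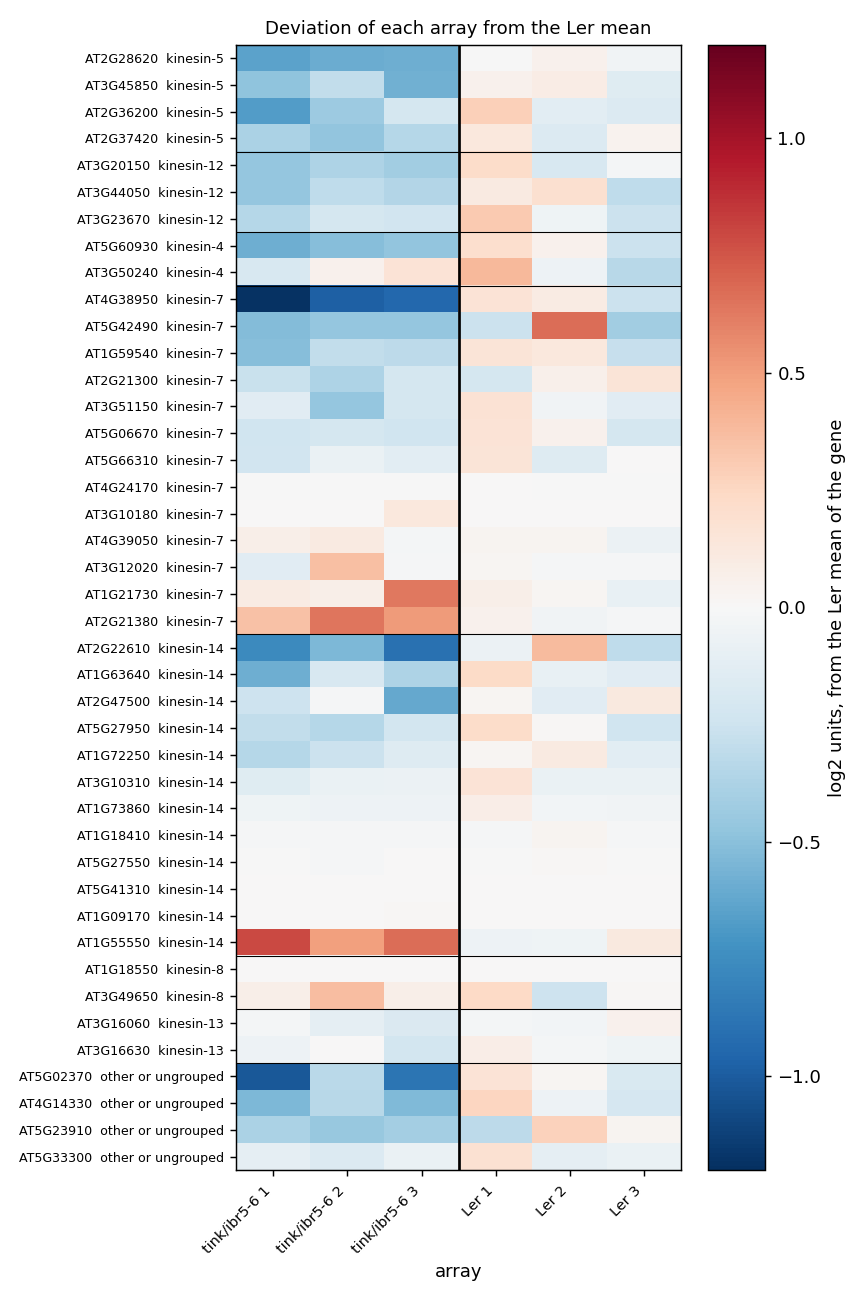
Deviation of each array from the L*er* mean of the gene, in log2 units, for the 42 measured kinesin genes, with the 3 *tink/ibr5-6* arrays left of the 3 L*er* arrays and lines between classes. The *tink/ibr5-6* columns are mostly blue (lower), also for every measured kinesin-5 and kinesin-12 gene. AT2G21380 and AT1G55550 stand out in red, and the first L*er* column is more often red than the third.

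Among the kinesin-14 genes, whose motors pull towards microtubule minus ends and focus spindle poles, 12 of 20 were measured. One was higher and the other 11 did not pass, with a class median of -0.08. AT1G55550 was higher, at 3.84, 3.54 and 3.71 in *tink/ibr5-6* against 2.98, 2.99 and 3.16 in L*er*. The genotypes did not overlap, but the L*er* arrays lay close to the lowest signal. The fitted log2 ratio was 0.65 (SE 0.10, adjusted p = 0.022 from limma), and among the fits without 1 array it passed only without *tink/ibr5-6* replicate 2 (0.58 to 0.73 over these fits).

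AT2G22610 had the lowest log2 ratio of the class, at 6.55, 6.77 and 6.42 in *tink/ibr5-6* against 7.24, 7.69 and 7.01 in L*er*. Its genotypes were 0.24 apart, while L*er* spread over more than that, and the log2 ratio of -0.73 (interval -1.30 to -0.16) had an adjusted p of 0.099 from limma. It passed with the filters on dim probe sets at means of 4 and 6 (adjusted p of 0.022 and 0.014 from limma). AT1G63640 with -0.39 and AT1G72250 with -0.25 also had all mutant arrays lower, and did not pass (adjusted p of 0.18 and 0.13). AT2G47500 and AT5G27950, both at -0.29, and AT3G10310 with -0.10 overlapped between genotypes. AT5G27550 was flat, between 3.28 and 3.31 on all arrays, and AT1G73860, AT1G18410, AT5G41310 and AT1G09170 lay near the lowest signal on every array. AT1G73860 counts among the 18 with lower values by a gap of only 0.01. So does the kinesin-7 gene AT5G42490 by a gap of 0.05, with L*er* replicate 2 its only array above 3.

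Among the remaining classes, kinesin-13 and kinesin-8 genes had small differences and none passed. Kinesin-13 proteins take microtubules apart at their ends, and *KINESIN-13A* is known for its part in leaf hair branching. *KINESIN-13A* was at 9.61, 9.68 and 9.45 in *tink/ibr5-6* and at 9.75, 9.65 and 9.62 in L*er*, with overlap and a log2 ratio of -0.09 (interval -0.29 to 0.10), and AT3G16060 had one of -0.10 (-0.23 to 0.04). The kinesin-8 gene AT3G49650 had one of 0.17 (-0.27 to 0.61), and AT1G18550 was at 2.1 on all arrays. Of the 4 measured genes outside these classes, 3 had all *tink/ibr5-6* arrays lower, beside 14.4% of all probe sets. AT5G02370 was at 4.73, 5.42 and 4.87 in *tink/ibr5-6* against 5.91, 5.77 and 5.56 in L*er*. Mutant replicate 2 was well above the other mutant plants, and the log2 ratio of -0.74 (interval -1.34 to -0.14) did not pass (adjusted p = 0.11 from limma). AT4G14330 was at 5.86, 6.07 and 5.87 in *tink/ibr5-6* and at 6.66, 6.34 and 6.20 in L*er* (-0.47, adjusted p = 0.11), AT5G23910 had a log2 ratio of -0.41 (adjusted p = 0.20), and AT5G33300 had one of -0.12 with overlap. With the filter at a mean of 4, AT5G02370 passed (adjusted p = 0.025 from limma). AT4G14330 passed with the filters at 4 and 6 (adjusted p of 0.034 and 0.023).

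The precision of these values is set by 3 plants per genotype. For members above a log2 value of 3 on some array, the median SD was 0.08 within *tink/ibr5-6* and 0.18 within L*er*, and the SD was larger in L*er* for 23 of these 35 genes. The 95% interval lay wholly between -1 and 1 for 38 of the 42 members, those at the lowest signal included. It reached -1 or beyond for AT4G38950, AT5G02370, AT2G22610 and AT5G42490. Whole inflorescences were sampled, in which fewer dividing cells and less RNA per dividing cell cannot be told apart.

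Other genes of cell division were few on the annotated part of the array, and the Aurora kinase genes among them were lower in *tink/ibr5-6*. Aurora kinases act on the spindle, the centromeres and the forming cell plate. Of 49 genes of proliferating cells (cyclins, mitotic kinases, replication and checkpoint genes) 7 were measured, with a median of -0.28. At an adjusted p under 0.05, 3 were lower (beside 6.65% of all probe sets), none higher (beside 9.6%) and 4 did not pass. *AUR1* was at 7.23, 7.38 and 7.48 in *tink/ibr5-6* against 8.09, 8.32 and 8.18 in L*er*, a log2 ratio of -0.84 (SE 0.09, adjusted p = 0.012 from limma). *AUR2* had one of -0.78 (adjusted p = 0.025) and *AUR3* one of -0.28 (adjusted p = 0.035). *HTR12*, the histone H3 variant of centromeres, had one of -0.33 (adjusted p = 0.053) and the replication gene *PRL*, named after its value was seen, one of 0.41 (adjusted p = 0.10). With 1 array left out, *AUR1* passed in 5 of 6 fits (not without *tink/ibr5-6* replicate 2, adjusted p = 0.051), *AUR2* in 1 (without *tink/ibr5-6* replicate 3) and *AUR3* in none (adjusted p of 0.051 to 0.099). None of the 7 was called with the limit on the fold change, beside 4.25% of all probe sets. The summed signal of the list was 10.48 to 10.67 in *tink/ibr5-6* and 10.66 to 10.79 in L*er* on the log2 scale.

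Genes that work beside kinesins on microtubules and at the cell plate changed in both directions or did not pass. Of 27 genes of cytokinesis and the phragmoplast 5 were measured, with a median of -0.14. Of these, 1 was lower (beside 6.65% of all probe sets), 1 higher (beside 9.6%) and 3 did not pass. *ATMAP65-6*, of a family of microtubule bundlers, was higher with a log2 ratio of 0.54 (adjusted p = 0.021 from limma), and AT5G12150 was lower with -0.26 (adjusted p = 0.043). With 1 array left out, *ATMAP65-6* passed only without L*er* replicate 1 and AT5G12150 in none of the 6 fits. *FU*, which encodes the kinase FUSED that is needed for the phragmoplast of dividing pollen cells, had one of -0.75 (adjusted p = 0.081), and *KEU*, whose protein helps vesicles fuse into the cell plate, one of -0.14 (adjusted p = 0.21). None of 10 measured of 48 tubulin and microtubule regulator genes passed by limma, beside 16.3% of all probe sets. The list median was -0.05. Of the 10, 4 had an unadjusted p under 0.05, beside 11.9% of all probe sets that were lower and 17.9% that were higher at that limit. The closest were *SPR1*, whose protein tracks growing microtubule ends, with -0.26 (adjusted p = 0.061) and *TUB5* with 0.45 (adjusted p = 0.082), and *TUB1* and *TUB6* had 0.16 and -0.19.

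Myosins, the motors that walk on actin, had a lower median log2 ratio than kinesins, and the difference between the families was not tested. Of 17 myosin genes 6 were measured, with a median of -0.74. At an adjusted p under 0.05, 2 were lower (beside 6.65% of all probe sets) and none higher (beside 9.6%). *XIC* was lower, at 5.64, 5.49 and 4.70 in *tink/ibr5-6* against 7.43, 7.32 and 7.08 in L*er* (log2 ratio -1.99, adjusted p = 0.021 from limma), and *XIJ* had -0.86 (adjusted p = 0.0066). *XIJ* passed in all 6 fits that left out 1 array, and *XIC* in 2, those without *tink/ibr5-6* replicate 1 or 3. *XIE* had -1.90 (adjusted p = 0.059) and *VIIIB* -0.62 (adjusted p = 0.19). *XIC* and *XIE* are known to work in pollen tubes.

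**Figure D4:**
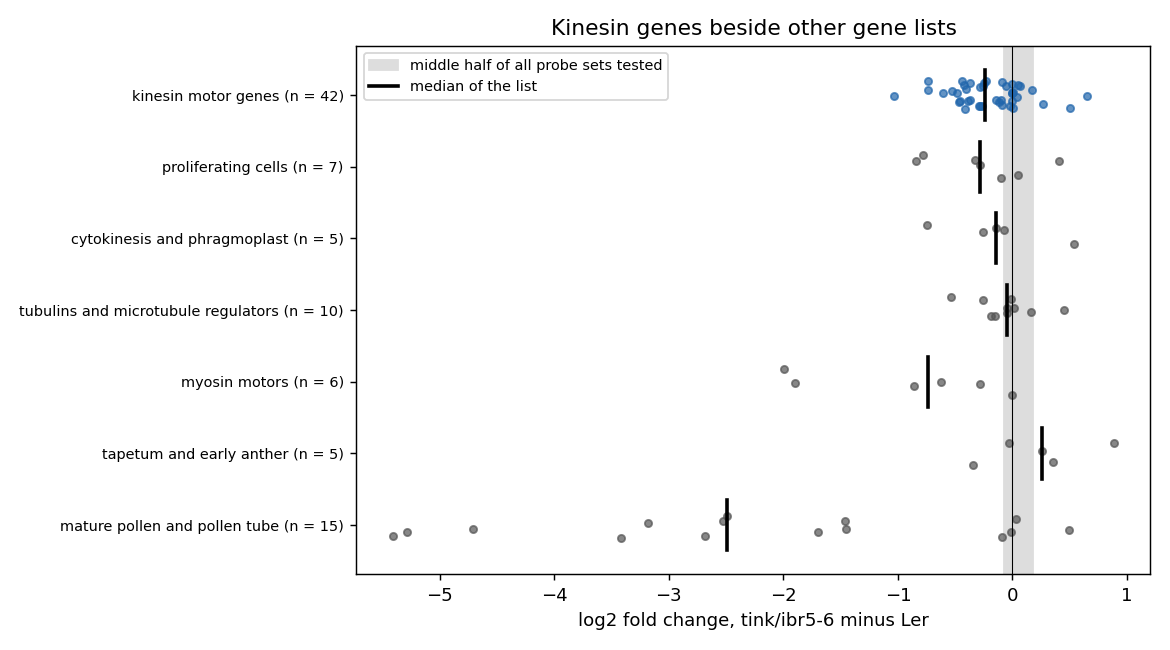
Log2 ratio, *tink/ibr5-6* minus L*er*, of each measured gene in the kinesin family and in 6 other gene lists, with the median of each list as a black bar and the span between the quartiles of all 22746 probe sets (-0.07 to 0.18) in grey. Kinesin genes lie mostly between -0.5 and 0 with a median of -0.24, while pollen genes reach far lower, with a median of -2.49.

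Markers of other cells in the sample moved as well. Of 45 genes listed for mature pollen and the pollen tube 15 were measured. Of these, 9 were lower (beside 6.65% of all probe sets), 1 higher (beside 9.6%) and 5 did not pass. Their median was -2.49, and their summed signal was 11.73 to 11.79 in *tink/ibr5-6* against 12.15 to 12.39 in L*er* on the log2 scale. The sum in *tink/ibr5-6* came mostly from *SWEET8*, the 1 gene that was higher (11.54, 11.61 and 11.58 in *tink/ibr5-6*, against 11.21, 11.03 and 11.02 in L*er*, adjusted p = 0.015 from limma), and without it, a sum added after the values were seen, the other 14 came to 8.46 to 8.73 in *tink/ibr5-6* and 11.12 to 11.68 in L*er*. *AGL18* had a log2 ratio of 0.03. Among the lower genes were *PLIM2b* with -2.49, *AtVEX1* with -4.71, AT4G39110 with -3.18 and *RALFL26* with -5.28, the last with *tink/ibr5-6* arrays of 3.69, 2.87 and 2.87 near the lowest signal, which limits how low its ratio can be, and *AGL65* and AT2G21480 were at the lowest signals in both genotypes. The sperm histone gene *MGH3*, the 1 measured of 10 genes of sperm and generative cells, had -2.95 (adjusted p = 0.062). Of 22 tapetum and early anther genes 5 were measured, 1 higher (beside 9.6% of all probe sets) and 4 that did not pass. Their median was 0.26, and their summed signal was 13.41 to 13.55 in *tink/ibr5-6* and 13.27 to 13.42 in L*er*. *AMS* was higher with 0.89 (adjusted p = 0.025), and with 1 array left out it passed only without *tink/ibr5-6* replicate 1. AT5G07230 had 0.35 (adjusted p = 0.060), and *EMS1* and AT1G75920 had 0.26 and -0.34. The part of these other cells in the values of the kinesin genes was not tested.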

How the data were processed

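RNA of 6 plants was hybridised to Affymetrix ATH1 arrays. The authors normalized the arrays with gcrma (version not given in the sources used here) and deposited the result as log2 values, 1 for each probe set on each array. This method subtracts background estimated from probe sequence and puts many dim probe sets on a shared lowest value. These log2 values were used as deposited. The 64 control probe sets among 22810 were not tested. The annotation names 1 gene for 13513 of the others and several for 503, and does not list 8730; symbols come from the RefSeq table of the TAIR10.1 assembly. Where a kinesin gene had several probe sets, as 1 had, the one with the highest mean was taken.

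Differences between genotypes were fitted by lmFit and eBayes (limma 3.58.1, R 4.3.3), with Benjamini-Hochberg adjustment over 22746 probe sets, an adjusted p under 0.05 and, for a call, an absolute log2 ratio above 1, after the study's methods. The prior had 0.401 degrees of freedom, so that each spread rests almost wholly on its own values. Intervals are limma's 95% intervals. The fit was also run on simulated arrays. These had the same spread in both genotypes and changes only at means of 4 or more, so they do not cover unequal spreads or dim probe sets. The members and the gene lists were chosen with earlier results of these arrays known, and the counts of genes without overlap and the log2 level of 3 were added after the values had been seen. Values on each array are given for members that passed or had the 5 lowest changes, and for some others of their classes. Of the 5 highest changes, only those that passed have such values. Of each other list, up to 4 genes with the smallest adjusted p were named, with some others. Alternatives were other normalizations, filters on dim probe sets, priors, array weights, a replicate block, other probe sets and leaving out each array. Counts and figures were made with matplotlib 3.10.9 and pandas 2.3.3 under Python 3.11.15. Replicates are separate plants, and nothing says whether they were grown together. The number of arrays limits the precision.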

Additional observations from a re-analysis of the deposited data

How the results depend on the processing

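The median log2 ratio of the kinesin genes stayed negative in every alternative, from -0.29 to -0.13, and was -0.22 to -0.13 with 1 array left out. The count of members with all *tink/ibr5-6* arrays lower was 19 to 23 with 1 array left out, when separation is easier (45.2% to 54.8% of members, beside 16.0% to 17.9% of all probe sets), and 16 of 32 and 10 of 21 members (20.3% of all probe sets in both) with filters that keep probe sets with a mean log2 value from 4 and from 6 up. The count with all arrays higher was 5 of 42 with quantile normalization (beside 26.6% of all probe sets). With the filters from 4 and from 6 up it was 1 of 32 and 1 of 21 (beside 31.7% and 33.2%). With 1 array left out it was 2 to 4 of 42 (beside 23.8% to 25.3%). At an adjusted p under 0.05, the lower members were 4 with quantile normalization (9.52%, beside 7.31% of all probe sets), 5 with centred arrays (11.9%, beside 8.04%), 9 at a mean of at least 4 (28.1%, beside 14.5%), 7 at a mean of at least 6 (33.3%, beside 15.3%), 1 at an adjusted p under 0.01 (2.38%, beside 1.58%) and 1 to 5 with 1 array left out, 2 without L*er* replicate 2 (4.76%, beside 3.44%) and 5 without L*er* replicate 3 (11.9%, beside 3.18%). In these 7 alternatives the share of lower members was above that of all probe sets, and in the others it was not, while the share of higher members was above it in none. The higher members were 1 under either filter, 0 at an adjusted p under 0.01 and 0 to 1 with 1 array left out. Filters test fewer probe sets. The single call became 0 at an adjusted p under 0.01 (beside 366 of 22746 probe sets). With 1 array left out it was 0 to 1 (beside 518 to 746 probe sets). A limit of 0.58 on the log2 ratio gave 3 of 42 members, beside 2110 of 22746 probe sets. With the replicate number as a block, which takes residual degrees of freedom, all 3 counts were 0 by limma (401 of all probe sets passed). Deviations of same-numbered plants from their genotype means had r across probe sets of -0.301, 0.0185 and -0.0508. With 3 plants per genotype, these values cannot tell whether same-numbered plants were grown or processed together. The direction turned for AT5G27550 with quantile normalization, where it passed (0.17, adjusted p = 0.0028 from limma), and for AT3G12020 without *tink/ibr5-6* replicate 2 (-0.07). It also turned for *KICP-02* (AT3G50240) with quantile normalization (-0.01) and without any 1 of 4 arrays (-0.16 to 0.20 over all 6 such fits). Dim members, with signal near 2.1, allow no statement.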
